A study of Homo sapiens with 8 samples.

Results

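The comparison is of CRISPR-DREAM with dCas9-VPR, 2 programmable gene activators aimed at the same human promoters, and rests on the 2 DREAM libraries and the 2 dCas9-VPR libraries, which are 4 of the 8 RNA-seq libraries in the series. These libraries were taken by their labels, and the deposited depth-scaled counts (CPM) of each gene were joined on the gene symbol. HEK293T cells, a widely used line derived from human embryonic kidney, were transfected with plasmids and harvested at 72 h, and 4 pooled gRNAs directed the activators to *HBG1* and *HBG2*. The study used the data to examine how specific the activators are across the transcriptome.

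In the DREAM group, nuclease-dead Cas9 (dCas9) and MCP-MSN were expressed from separate plasmids at 187.5 ng each, and the gRNAs carried MS2 stem-loops that MCP, the MS2 coat protein, binds. MSN joins transactivation domains (TADs) of human factors, MRTF-A and NRF2 among them. In the dCas9-VPR group, 1 plasmid at 375 ng encoded dCas9 fused directly to VPR, which joins the viral activators VP64 and Rta with a part of human p65, and the gRNAs were not labelled as MS2 gRNAs. The 2 Control libraries, which received dCas9, MCP-mCherry and the MS2 gRNA pool and therefore no TAD, served as background, and gRNA plasmid was 125 ng in every group. The effector, the way it is recruited, the gRNA scaffold and the plasmids all differed between DREAM and dCas9-VPR, so that their parts in any difference below cannot be told apart. A transfected culture also holds a mixture of cells with and without the plasmids, and nothing in the labels says whether the 2 libraries of a group came from separate cultures. The p-values therefore measure the spread between these libraries only, which may be technical.

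*HBG1* and *HBG2* encode the gamma chains of fetal hemoglobin and lie in the beta-globin cluster of chromosome 11, where they follow the embryonic gene *HBE1*. They are used in erythroid cells before birth and are silent or nearly so in most other cells, which makes them a sensitive target for an activator in a kidney line. A TAD acts by bringing coactivators such as p300, CBP and Mediator to a promoter. MRTF-A normally works with SRF at genes of the actin cytoskeleton, NRF2 at antioxidant genes and p65 at NF-kB targets.

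The 8 libraries held an estimated 28.4 to 35.1 M reads, so that 3 reads correspond to 0.0854 to 0.106 CPM, which covers counting error only. Replicates of DREAM were less alike than those of dCas9-VPR, with standard deviations of the log2 difference of 0.17 and 0.12 over the 9799 genes whose mean reached 10 CPM. The 10 HEK293T markers were all detected. Their summed level was 580 to 643 CPM with DREAM, 691 to 741 CPM with dCas9-VPR and 568 to 633 CPM in Control. Summed markers of other cell types were at 30.0 to 33.0 CPM with DREAM and 29.2 to 32.9 CPM with dCas9-VPR, beside 18.6 to 19.2 CPM in Control. Those of erythroid cells were at 149 to 163 CPM and 142 to 153 CPM, beside 153 to 171 CPM in Control. Most of the erythroid sum was 1 gene, *TFRC*, at 120 and 132 CPM with DREAM and 109 and 119 CPM with dCas9-VPR. Of the 10 erythroid genes measured, 5 were below 1 CPM in all 4 libraries compared. Of the HEK293T markers, *VIM* was lower and *KRT8* higher with DREAM at a false discovery rate (FDR) below 0.05, with adjusted p-values of up to 0.18 when 1 library was left out, and of 7 markers of other cell types tested, *DES* (0.93 on the log2 scale), *PECAM1* (0.89) and *GFAP* (0.65) were higher and *COL3A1* (-0.73) lower. These 4 markers had adjusted p-values of up to 0.28 when 1 library was left out, and the part of all these shifts in the results below was not tested. Fold changes are differences of log2(CPM + 0.5), which makes changes at low levels look smaller than they are, and their standard errors (SE) and Benjamini-Hochberg adjusted p-values come from limma over 15122 genes. With 2 libraries per group an exact permutation test cannot go below p = 0.33, so no such test is given for single genes.

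With DREAM, *HBG2* RNA was at 12.1 times its level with dCas9-VPR, and *HBG1* and the entry that spans both genes were also higher. *HBG2* was at 2187 and 2874 CPM in the DREAM libraries, at 218 and 201 CPM in the dCas9-VPR libraries and at 1.29 and 0.838 CPM in the Control libraries. Both activators stood far above Control, and the lower DREAM library was still well above the higher dCas9-VPR library. The group means were 2531 ± 485 CPM with DREAM and 209.8 ± 12.1 CPM with dCas9-VPR (SD, n = 2 each). On the log2 scale the difference was 3.58 (SE 0.17, 95% interval 3.17 to 3.98, limma adjusted p = 0.00014). Relative to Control, the log2 fold change of *HBG2* was 10.66 with DREAM and 7.09 with dCas9-VPR, with the same Control libraries in both.

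*HBG1*, which the files place at chr11:5248269-5249858 on the minus strand (hg38), was at 7.42 and 12.7 CPM with DREAM and at 0.385 and 0.548 CPM with dCas9-VPR. It was listed at 0 in both Control libraries. The groups did not overlap, and the difference was 3.41 on the log2 scale (SE 0.24, limma adjusted p = 0.000105), while the ratio of the mean CPM was 21.5. *HBG1* and *HBG2* are near-identical paralogs, and *AC104389.6*, at chr11:5248270-5254784, spans both, so the split of reads among the 3 entries is uncertain. *AC104389.6* was at 1782 and 2236 CPM with DREAM and at 187 and 167 CPM with dCas9-VPR, a log2 difference of 3.49 (SE 0.18). The sum of *HBG1* and *HBG2* differed by 3.58 (SE 0.17) and the sum of all 3 by 3.54 (SE 0.13), close to the values of the separate entries.

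Other transcripts of the cluster were also higher with DREAM. Of 12 genes counted within 500 kb of *HBG1* and *HBG2*, with some globin genes left out, 9 were tested. Of these, 7 were past a fold change of 2 with an FDR below 0.05, beside 0.734% of all genes tested. The 7 include both target genes, the spanning entry *AC104389.6*, and *AC104389.5*, which overlaps *HBG2*. A further member, *HBBP1*, reached 1 CPM in the DREAM libraries alone, so this share does not describe untargeted neighbours. *HBBP1*, a globin pseudogene, was at 1.01 and 1.83 CPM with DREAM and at 0.0860 and 0.0964 CPM with dCas9-VPR, which is about 3 reads per library. *AC104389.5*, an overlapping read-through entry, was at 4.99 and 5.18 CPM with DREAM and at 0.966 and 0.946 CPM with dCas9-VPR. Neither gene overlapped between the groups, and the log2 differences were 1.67 (SE 0.25) and 1.94 (SE 0.18). *BGLT3*, a long noncoding RNA of the cluster, did not pass the filter on low values and was at 0.759 and 0.948 CPM with DREAM against 0.0287 and 0.0322 CPM with dCas9-VPR, about 1 read per library in the latter.

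*HBE1*, the embryonic epsilon-globin gene, had a less stable call. Its level was 1.14 and 1.79 CPM with DREAM, 0.372 and 0.449 CPM with dCas9-VPR and 0.766 and 1.20 CPM in Control. The DREAM libraries lay above the dCas9-VPR libraries but the lower DREAM library lay within the Control range. The log2 difference of 1.09 (SE 0.26, limma adjusted p = 0.0231) was not past the threshold relative to Control in either group, and the adjusted p rose to as much as 0.14 when a library was left out. *TRIM22*, an interferon-inducible gene at chr11:5689697-5737090 on the plus strand, was the member of this window that was lower with DREAM, at 0.664 and 0.246 CPM against 1.97 and 1.28 CPM. Its log2 difference was -1.17 (SE 0.27, limma adjusted p = 0.0203), with adjusted p-values of up to 0.16 without 1 library. The 2 other genes tested, *TRIM5* and *TRIM6*, did not pass the test.

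**Figure D1:**
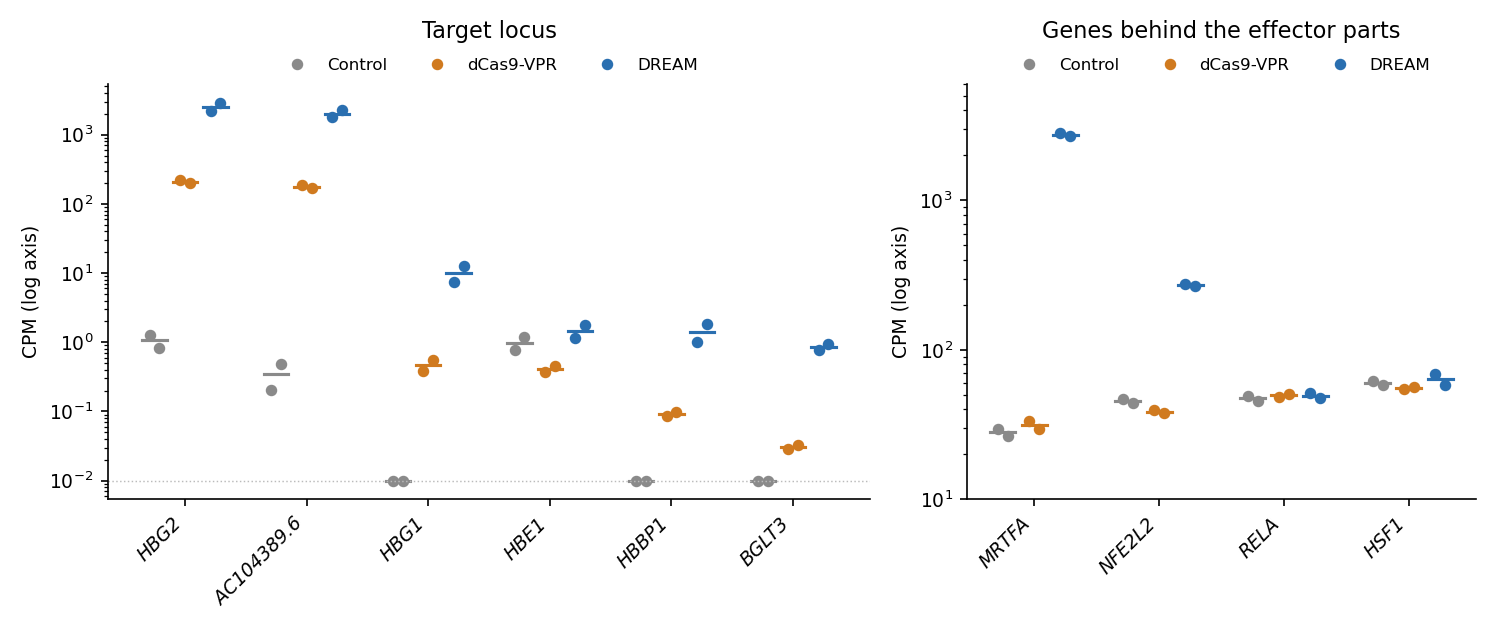
CPM on a log axis for the target locus (left) and for genes from which effector parts derive and *HSF1*, a part of neither activator (right), with 1 point per library, 2 libraries per group and short lines for the group means. Values listed at 0 are drawn on the dotted line; the DREAM points of *HBG2* lie at 2187 and 2874 CPM and those of dCas9-VPR at 218 and 201 CPM.

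Genes from which MSN domains derive were higher with DREAM. *MRTFA* was at 2819 and 2691 CPM with DREAM, at 33.5 and 29.4 CPM with dCas9-VPR and at 29.6 and 26.7 CPM in Control. The dCas9-VPR libraries were near the Control level, and DREAM differed from dCas9-VPR by 6.43 on the log2 scale (SE 0.08, limma adjusted p = 5.2e-12). The NRF2 gene, *NFE2L2*, was at 275 and 268 CPM with DREAM and at 39.4 and 38.0 CPM with dCas9-VPR. The groups did not overlap, and the log2 difference was 2.79 (SE 0.06). CPM values do not separate reads of the transfected MSN coding sequence from reads of the endogenous genes.

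*RELA*, which encodes p65 and so lies behind a part of VPR, was at 51.2 and 47.4 CPM with DREAM and at 48.5 and 51.0 CPM with dCas9-VPR. The groups overlapped, and the 95% interval of the log2 difference ran from -0.17 to 0.14. *HSF1*, a part of neither effector, was at 68.8 and 58.5 CPM with DREAM and at 54.9 and 56.6 CPM with dCas9-VPR (log2 difference 0.18, SE 0.07, limma adjusted p = 0.136). Among 13 paralogs of these factors that were tested, 2 (15.4%) were higher with DREAM, beside 7.9% of all genes, and 11 did not pass the test. *NFE2*, a paralog of NRF2 that acts in the erythroid and megakaryocyte lineages, was at 3.48 and 3.90 CPM with DREAM, 0.945 and 1.03 CPM with dCas9-VPR and 0.319 and 0.228 CPM in Control, a log2 difference of 1.49 (SE 0.17, limma adjusted p = 0.00089). *RELB*, an NF-kB subunit, rose by 0.42 (SE 0.09), but without either dCas9-VPR library its adjusted p was as high as 0.12.

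Among known targets of the parent factors, some members passed the test in each direction and most did not pass it. Of 27 SRF/MRTF targets tested, 4 (14.8%) were higher and 3 (11.1%) lower with DREAM at an FDR below 0.05, with a median log2 difference of -0.03 beside 0.02 for all genes, of which 7.9% were higher and 5.21% lower. *ITGA5*, the fibronectin receptor subunit, was at 82.9 and 75.2 CPM with DREAM and 53.6 and 49.1 CPM with dCas9-VPR (log2 difference 0.62, SE 0.09), whereas gamma-actin, *ACTG1*, was at 2087 and 2088 CPM against 2857 and 2984 CPM (-0.48, SE 0.05). Both genes had groups that did not overlap, and they moved in opposite directions. Control libraries held 36.7 and 31.8 CPM of *ITGA5* and 2793 and 2629 CPM of *ACTG1*. Libraries of SAM, another MS2-recruited activator of the series, held 75.3 and 70.2 CPM and 1890 and 1863 CPM. These shifts were therefore not particular to DREAM. *FBLIM1*, an adaptor of focal adhesions, was higher by 0.61 (SE 0.08), at 37.3 and 35.0 CPM with DREAM and 35.8 and 35.2 CPM with SAM.

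Beside the same 7.9% and 5.21% of all genes, 1 of 23 NRF2 targets tested (4.35%) was higher and 3 (13%) were lower with DREAM, with a median of -0.02. Heme oxygenase, *HMOX1*, was the target that was higher, at 27.7 and 27.2 CPM against 18.2 and 19.3 CPM with dCas9-VPR. Control libraries held 28.3 and 27.2 CPM of it, so that the DREAM libraries were at the Control level and the dCas9-VPR libraries below it (log2 fold change to Control -0.55, limma adjusted p = 0.00173). Of 21 interferon targets tested, 2 (9.52%) were higher and 3 (14.3%) lower, with a median of -0.12. The antiviral membrane protein gene *BST2* was at 6.07 and 6.64 CPM with DREAM, at 12.2 and 10.7 CPM with dCas9-VPR and at 6.19 and 5.44 CPM in Control, so that it was the dCas9-VPR libraries that stood apart from Control. Of 17 NF-kB targets tested, 3 (17.6%) were higher and 1 (5.88%) was lower, with a median of 0.03. *ITGA5*, *ACTG1*, *FBLIM1*, *HMOX1* and *BST2* kept their calls in each of the 8 fits that left out 1 library, whereas the number of higher members in these 4 lists was then as low as 2, 1, 0 and 0 and that of lower members as low as 1, 0, 1 and 0.

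Across the transcriptome, 111 genes were past a fold change of 2 with an FDR below 0.05 between the activators, of which 109 were higher with DREAM (0.721% of genes tested) and 2 lower (0.0132%). With no threshold on the fold change, 1195 genes (7.9%) were higher and 788 (5.21%) lower at an FDR below 0.05. These counts were 261 and 134 without dCas9-VPR replicate 1, 260 and 121 without dCas9-VPR replicate 2, 856 and 464 without DREAM replicate 2, and 729 and 428 with the 4 compared libraries alone. Median-of-ratios scaling turned 1195 and 788 into 1047 higher and 1028 lower, whereas the counts past a fold change of 2 were 105 and 3. The excess of higher genes past a fold change of 2 therefore held under this scaling, and the excess among smaller differences did not. Of the 109 genes, 97 had a mean below 10 CPM over the 8 libraries. Among genes averaging 50 CPM or more, 324 were higher and 325 lower at an FDR below 0.05.

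**Figure D2:**
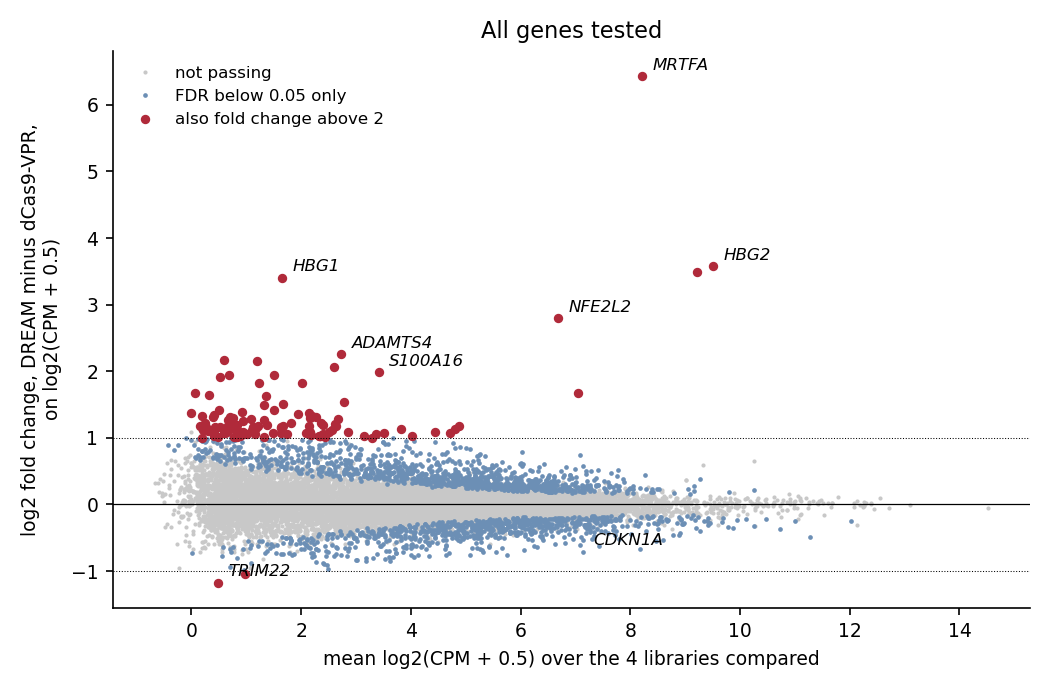
Log2 fold change of DREAM minus dCas9-VPR against the mean log2(CPM + 0.5) of the 4 libraries compared, with 1 point per gene for 15122 genes. Dotted lines mark a fold change of 2; 109 red points lie above and 2 below, most of them at low levels, and *MRTFA*, *HBG2* and *NFE2L2* lie apart at the right.

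Of the 109 genes, 61 had a mean of at least 3 CPM with DREAM, 20 of at least 10 CPM and 5 of at least 50 CPM, among them *MRTFA*, *HBG2*, *AC104389.6* and *NFE2L2*. Most differences were close to the threshold, since 88 of the 109 were under 1.5 on the log2 scale. Relative to Control, DREAM was past the same threshold upward for 82 of them, and dCas9-VPR was above Control for 12, below it for 4 and past it in neither direction for 93. The genes were chosen on the same DREAM and dCas9-VPR libraries, so this split is largely set by that choice and is no separate result. As background, DREAM was past the threshold relative to Control for 309 genes upward and 76 downward (2.04% and 0.503%), and dCas9-VPR for 70 upward and 97 downward (0.463% and 0.641%). These comparisons share the Control libraries, so their counts are given side by side only. Protein-coding genes made up 95.4% of the 109 and 87.6% of the genes tested.

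Among the largest of these differences outside the globin and effector genes was *ADAMTS4*, a protease of cartilage proteoglycans. It was at 13.4 and 14.7 CPM with DREAM, 2.66 and 2.41 CPM with dCas9-VPR and 0.798 and 1.21 CPM in Control. The 3 groups did not overlap, with dCas9-VPR between Control and DREAM. SAM libraries also lay above dCas9-VPR, at 10.8 and 11.9 CPM, so the rise was not particular to DREAM. The log2 difference between the activators was 2.26 (SE 0.15, limma adjusted p = 7.91e-05), and relative to Control the log2 fold changes were 3.29 with DREAM and 1.03 with dCas9-VPR.

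*S100A16*, which encodes a calcium-binding protein, showed the same order, at 19.6 and 21.7 CPM with DREAM, 4.89 and 4.81 CPM with dCas9-VPR and 0.351 and 0.652 CPM in Control. Its neighbour *S100A1*, which regulates calcium handling in muscle, was at 19.2 and 26.9 CPM with DREAM, 10.7 and 11.1 CPM with dCas9-VPR and 1.12 and 1.18 CPM in Control. Both were higher with each activator than in Control and higher still with DREAM, by 1.98 (SE 0.15) and 1.03 (SE 0.16) on the log2 scale. SAM libraries held 9.86 and 10.5 CPM of *S100A16* and 4.79 and 6.11 CPM of *S100A1*. The 2 genes lie 14.8 kb apart on chromosome 1. Of 6 genes of the S100 cluster tested, *S100A10* was lower with DREAM, at 29.9 and 30.8 CPM against 44.4 and 42.0 CPM, with an adjusted p of 0.053 without dCas9-VPR replicate 1, and *S100A4*, *S100A11* and *S100A13* did not pass the test.

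A further group of genes was near the Control level with dCas9-VPR and higher with DREAM. *TCEAL7*, a transcription elongation factor-like gene, was at 13.4 and 10.5 CPM with DREAM, 2.60 and 2.34 CPM with dCas9-VPR and 3.25 and 2.93 CPM in Control. *FTCD*, an enzyme of histidine breakdown, was at 3.61 and 5.23 CPM with DREAM against 0.630 and 0.546 CPM, and *RDH12*, a retinol dehydrogenase, at 6.17 and 8.08 CPM against 1.35 and 1.99 CPM. The log2 differences of these 3 genes were 2.06 (SE 0.16), 2.16 (SE 0.21) and 1.82 (SE 0.21). That their groups did not overlap was a condition of their choice. *LIPH*, a phospholipase gene, and *TRPV2*, a cation channel gene, differed by 1.42 (SE 0.13) and 1.37 (SE 0.18). In the SAM libraries *TCEAL7* was at 15.1 and 11.5 CPM and *RDH12* at 9.49 and 11.2 CPM. There *LIPH* was at 8.15 and 8.19 CPM, *TRPV2* at 3.63 and 4.63 CPM and *FTCD* at 1.20 and 1.54 CPM. Each was above Control there, so the rises were not particular to DREAM.

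*PTAFR*, the receptor for platelet-activating factor, differed in another way. It was at 3.61 and 4.25 CPM with DREAM, 0.687 and 0.802 CPM with dCas9-VPR and 1.82 and 1.47 CPM in Control. DREAM was above Control (1.05) and dCas9-VPR below it (-0.78, limma adjusted p = 0.0116), which together gave a log2 difference of 1.83 (SE 0.17). SAM libraries also lay above Control, at 5.92 and 7.19 CPM. The HLA class II genes *HLA-DRB5* and *HLA-DQA1* were higher with DREAM by 1.54 (SE 0.18) and 1.35 (SE 0.22), though reads of HLA genes are shared among close copies. *FAM166B* was at 3.89 and 6.04 CPM with DREAM against 1.14 and 1.67 CPM, and the unnamed locus *AC093525.2* differed by 1.64 (SE 0.27), the latter with an adjusted p of 0.051 without 1 dCas9-VPR library.

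**Figure D3:**
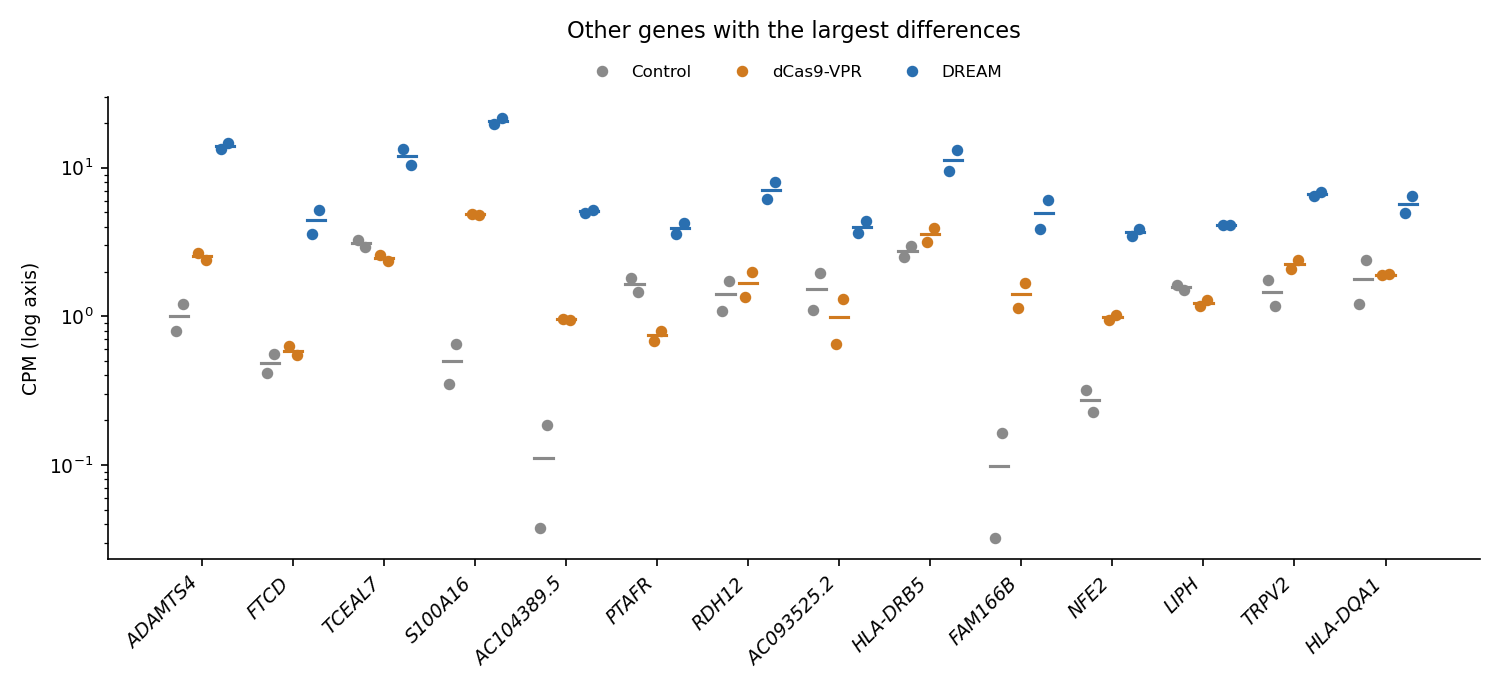
CPM on a log axis of the other genes with the largest differences, with 1 point per library and short lines for the group means. Genes were chosen by size among those past the threshold with a mean of at least 3 CPM with DREAM and no overlap between the groups. DREAM points lie above dCas9-VPR points for every gene drawn, and their lack of overlap was a condition of the choice. The place of Control varies, from below dCas9-VPR for *S100A16* to above it for *PTAFR*.

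Some genes past the threshold were neighbours on the chromosome. Outside the globin window, 14 of 104 such genes (13.5%) had another within 50 kb, and 1.84% of the other genes tested had such a gene that near, a difference that was not tested. The 7 pairs were picked out after the values were known. *ADGRG1* and *ADGRG3*, adhesion receptors on chromosome 16 whose ends lie 2.7 kb apart, were at 3.70 and 3.05 CPM and at 3.13 and 3.02 CPM with DREAM, against 1.12 and 1.09 CPM and 1.40 and 1.16 CPM with dCas9-VPR. *GPER1* and *GPR146*, receptor genes 22.9 kb apart on chromosome 7, were higher by 1.29 (SE 0.20) and 1.26 (SE 0.22). In both pairs every DREAM library lay above every dCas9-VPR library. The groups were also apart in all 111 genes past the threshold. The other pairs were *S100A1* with *S100A16*, *NYAP1* with *C7orf61*, *RYR1* with *SPRED3*, *CD79B* with *GH2*, and *MAGEA2* with *MAGEA2B*, the last of which are near-identical copies whose reads cannot be assigned with certainty.

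In the other direction, 2 genes were past the threshold, *TRIM22* and *AC008738.7*. *AC008738.7* was at 0.881 and 0.873 CPM with DREAM and at 1.91 and 2.86 CPM with dCas9-VPR (log2 difference -1.05, SE 0.27, limma adjusted p = 0.032), and it lost its call without any 1 of the 4 libraries, as its adjusted p was then up to 0.22. Falls at better expressed genes were smaller. *NRP1*, a co-receptor for semaphorins and VEGF, was at 8.45 and 8.01 CPM with DREAM, 15.3 and 14.6 CPM with dCas9-VPR and 17.2 and 15.5 CPM in Control. It was lower with DREAM than with dCas9-VPR and in Control, by -0.82 relative to dCas9-VPR (SE 0.10, limma adjusted p = 0.000943). SAM libraries were below dCas9-VPR and Control too, at 10.37 and 10.43 CPM. The netrin receptor gene *UNC5C*, the protocadherin gene *PCDH7* and *TMSB15A*, which encodes an actin-sequestering thymosin, were lower by -0.84 (SE 0.13), -0.84 (SE 0.13) and -0.85 (SE 0.12). For each of them the SAM libraries also lay below those of dCas9-VPR, with *TMSB15A* at 8.79 and 8.44 CPM. These 4 genes kept their calls without any 1 library, whereas *CENPF*, *SEMA6A* and *MAF*, which the same rule named, each lost theirs in 2 such fits, with adjusted p-values of up to 0.136, 0.060 and 0.054.

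Most genes of DNA replication and cell division were lower with DREAM. Of 24 such genes tested, 16 (66.7%) were lower at an FDR below 0.05, beside 5.21% of all genes, 22 had a negative difference, and the median was -0.35 beside 0.02 for all genes. None was higher at that FDR in limma, although 2 were at an unadjusted p below 0.05, and none passed a fold change of 2. The count was 10 without dCas9-VPR replicate 2 and 20 under median-of-ratios scaling. All 24 had libraries that did not overlap, 22 of them with DREAM lower. Of the 15122 genes tested, 3645 (24.1%) did not overlap with DREAM lower and 4631 with DREAM higher.

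*RRM2*, the subunit of ribonucleotide reductase that limits the supply of deoxynucleotides, was at 139.8 and 138 CPM with DREAM, 219 and 208 CPM with dCas9-VPR and 183 CPM in each Control library. Both DREAM libraries were below Control and both dCas9-VPR libraries above it, and the activators differed by -0.62 (SE 0.05, limma adjusted p = 0.000157). SAM libraries were below Control too, at 130 and 125 CPM. *PLK1*, a kinase of mitotic entry and spindle assembly, was at 116 and 117 CPM with DREAM, 165 and 172 CPM with dCas9-VPR and 158 and 164 CPM in Control. The spindle checkpoint kinase gene *BUB1* was at 67.3 and 71.7 CPM with DREAM against 96.2 and 102 CPM, and *PCNA*, the sliding clamp of DNA polymerase, at 312 and 327 CPM against 409.7 and 415 CPM. In all 3 the DREAM libraries lay below those of dCas9-VPR and Control, and the log2 differences from dCas9-VPR were -0.53 (SE 0.05), -0.51 (SE 0.06) and -0.37 (SE 0.05).

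Relative to Control, 18 of the 24 were lower and 2 higher with DREAM (median -0.31), where 9.25% of all genes were lower and 18.8% higher. With dCas9-VPR, 2 were lower and 2 higher (median 0.04), where 6.68% of all genes were lower and 11% higher. The spread among members was wide, from -0.66 for cyclin D1 (*CCND1*) to -0.24 for the helicase subunit gene *MCM6* among those that passed. The proliferation antigen gene *MKI67* had a difference of -0.56 that did not pass, with a 95% interval of -0.996 to -0.126. Outside the list, *KIFC1*, a mitotic kinesin, was at 60.4 and 60.2 CPM with DREAM against 93.0 and 92.9 CPM with dCas9-VPR (-0.62, SE 0.06). SAM libraries held 60.7 and 58.7 CPM of it. In bulk samples fewer dividing cells and less RNA of these genes per cell cannot be told apart.

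**Figure D4:**
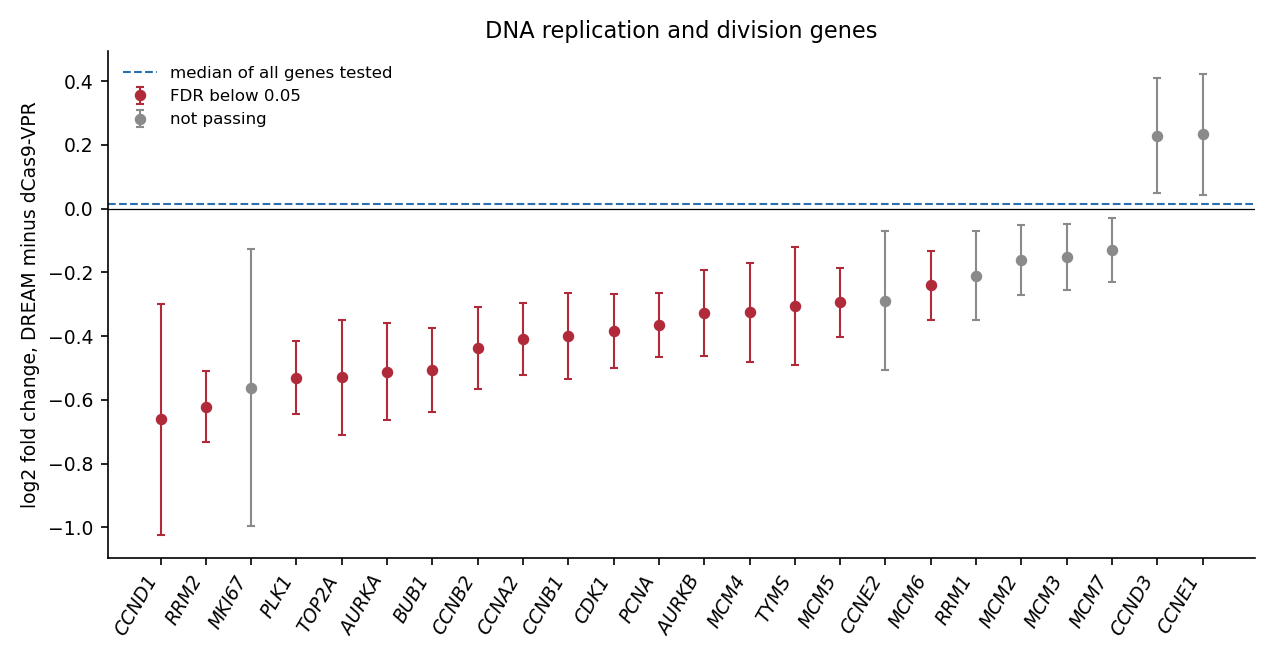
Log2 fold change of DREAM minus dCas9-VPR for 24 genes of DNA replication and cell division, with bars for the 95% interval of the limma fit, red for an FDR below 0.05 and a dashed line at the median of all genes. The points run from -0.66 to 0.23, and 22 of 24 lie below 0.

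The promoters of these genes are shown because many of them share the CCAAT box and the related cell cycle element TTTGAA. RefSeq sequence on GRCh38.p14 was searched in the 250 bases upstream of each start for both motifs on both strands, and 12 of the 16 lower genes matched the table, with 16 promoters. CCAAT was found in 15 of these (93.8%), in 32.9% of 16166 promoters of genes tested and in 32% of all 35116 promoters. TTTGAA was found in 5 (31.2%), in 8.99% and in 13.3%. The full list of 24 genes, lower or not, had CCAAT in 23 of 27 promoters (85.2%). In the following sequences, written 5′ to 3′ on the strand of the gene, capitals mark CCAAT or its complement ATTGG and, in *PLK1*, TTTGAA.
PLK1, chr16:23678639-23678888, plus strand: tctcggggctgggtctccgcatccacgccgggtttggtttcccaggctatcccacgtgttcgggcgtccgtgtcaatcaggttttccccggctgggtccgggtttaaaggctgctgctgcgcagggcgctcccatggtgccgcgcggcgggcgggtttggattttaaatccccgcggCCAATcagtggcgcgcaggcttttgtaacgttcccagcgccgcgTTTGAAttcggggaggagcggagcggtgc
BUB1, chr2:110678064-110678313, minus strand: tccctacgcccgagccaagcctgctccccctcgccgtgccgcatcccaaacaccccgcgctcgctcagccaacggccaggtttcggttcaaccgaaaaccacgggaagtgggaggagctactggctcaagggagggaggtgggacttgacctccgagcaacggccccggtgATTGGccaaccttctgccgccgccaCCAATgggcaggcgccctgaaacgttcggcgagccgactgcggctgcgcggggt
RRM2, chr2:10122489-10122738, plus strand: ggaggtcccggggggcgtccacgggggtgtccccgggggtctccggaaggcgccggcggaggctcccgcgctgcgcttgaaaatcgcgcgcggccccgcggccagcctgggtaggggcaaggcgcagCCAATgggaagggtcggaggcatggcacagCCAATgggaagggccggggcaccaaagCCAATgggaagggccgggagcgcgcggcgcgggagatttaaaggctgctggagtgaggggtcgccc
PCNA, chr20:5126623-5126872, minus strand: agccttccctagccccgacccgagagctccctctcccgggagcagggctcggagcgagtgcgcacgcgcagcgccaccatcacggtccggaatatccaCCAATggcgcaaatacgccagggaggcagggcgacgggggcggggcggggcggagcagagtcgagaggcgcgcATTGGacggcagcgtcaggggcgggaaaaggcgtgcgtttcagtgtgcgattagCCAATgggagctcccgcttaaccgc
*RRM2* and *PCNA* each have another start, not printed, with 1 and 2 CCAAT matches, against 3 in the start printed. A match describes the sequence and is not evidence that a factor is bound there. Among the 109 genes that were higher with DREAM, 67 matched the table, and CCAAT was in 29 of their 101 promoters (28.7%), close to the share in all genes tested.

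Some other lists also held more lower than higher members. Of 24 p53 targets tested, 7 (29.2%) were lower and 2 (8.33%) higher with DREAM, beside 5.21% and 7.9% of all genes. The median was -0.11, beside 0.02 for all genes. *CDKN1A*, the p21 inhibitor of cyclin-dependent kinases, was at 110.1 and 109 CPM with DREAM, 173 and 186 CPM with dCas9-VPR and 153 and 154 CPM in Control. It thus followed the same order as *RRM2*, although the proteins have opposing roles in the cell cycle, and differed by -0.71 (SE 0.06, limma adjusted p = 0.000157). SAM libraries held 114 and 105 CPM of *CDKN1A*. *TP53INP1*, a stress-induced p53 cofactor, and *DDB2*, a sensor of ultraviolet damage, were lower by -0.66 (SE 0.08) and -0.46 (SE 0.07). Without 1 library, the number of lower p53 targets was 3 to 6.

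Of 21 genes of sterol and fatty acid synthesis tested, 6 (28.6%) were lower and 20 had a negative difference, with a median of -0.14 beside 0.02 for all genes. Of all genes tested, 5.21% were lower and 7.9% higher. The same shares are the background for the heat shock genes below, of which 26.1% were lower and 13% higher. *SCD*, the stearoyl-CoA desaturase, was at 475 and 428 CPM with DREAM and 546 and 564 CPM with dCas9-VPR (-0.30, SE 0.06), and *INSIG1*, a sterol sensor, at 151 and 149 CPM against 177 and 189 CPM (-0.28, SE 0.06). These differences were small, and limma called 0 members without dCas9-VPR replicate 1 or 2, beside 8 lower and 0 higher at an unadjusted p below 0.05 with all libraries. Heat shock genes split into 6 lower and 3 higher of 23 tested, and again 0 passed without dCas9-VPR replicate 1 or 2, beside 7 lower and 5 higher at an unadjusted p below 0.05 with all libraries. *TRIB3*, a stress-induced pseudokinase, was at 209 and 197 CPM with DREAM, 146 and 137 CPM with dCas9-VPR and 289 and 290.2 CPM in Control, and *DDIT4*, an inhibitor of mTORC1, at 353 and 396 CPM, 497 and 531 CPM and 634 and 646 CPM. Both of these genes of the ATF4 response were below Control with each activator, but in opposite order between them, with log2 differences of 0.52 (SE 0.07) and -0.46 (SE 0.06).

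**Figure D5:**
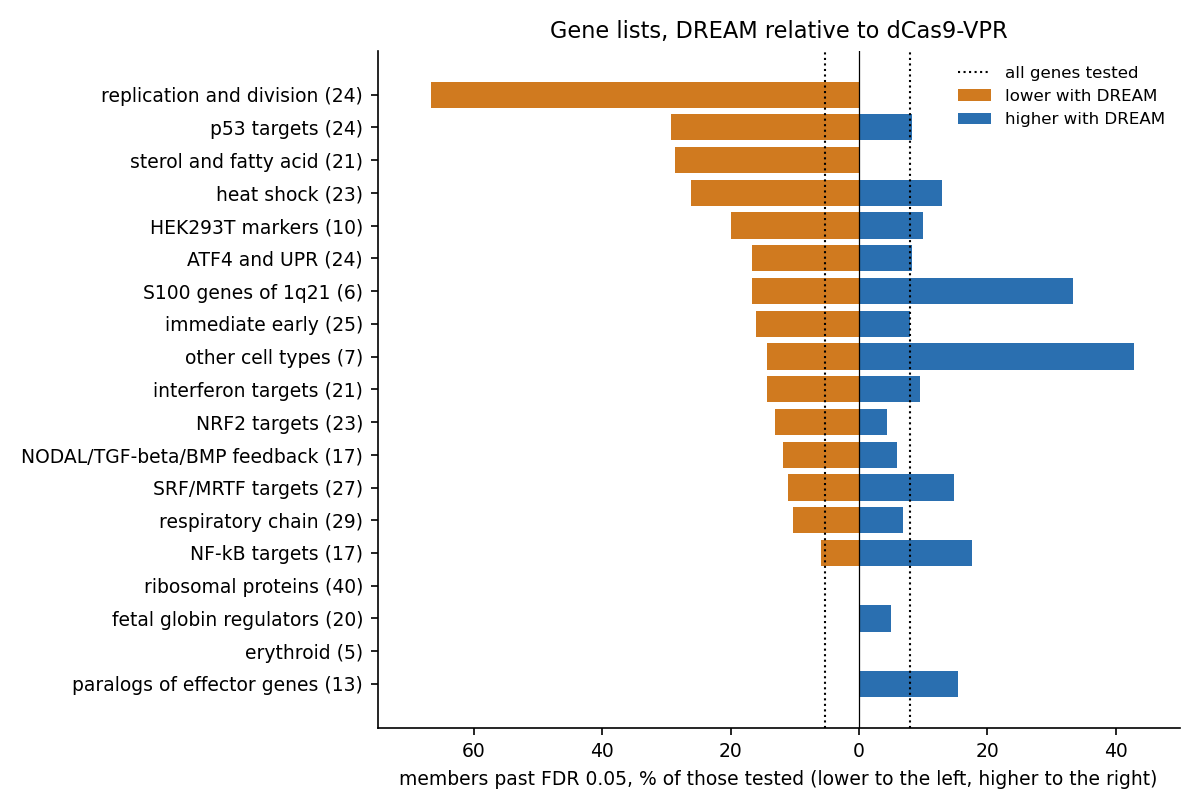
Percentage of the tested members of each gene list that were lower (left) or higher (right) with DREAM than with dCas9-VPR at an FDR below 0.05, with the number tested in parentheses and dotted lines at 5.21% and 7.9% for all genes. Replication and division genes reach 66.7% on the left, and ribosomal protein and erythroid genes have no bar.

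In some other groups 0 or 1 member passed the test, and in others a few passed in each direction. Of 40 cytosolic ribosomal protein genes, limma called 0 at an FDR below 0.05 and 1 at an unadjusted p below 0.05, and the median difference was 0.02. Of 20 regulators of fetal globin silencing tested, *HDAC1* was higher by 0.23 (SE 0.04), an effect that lost its call without either dCas9-VPR library, and 19 did not pass. Of 5 erythroid genes tested, 0 passed at either level, and *TFRC*, the transferrin receptor, was at 120 and 132 CPM with DREAM against 109 and 119 CPM. The alpha-like globin gene *HBQ1* was at 9.27 and 11.1 CPM against 11.5 and 11.3 CPM, with a 95% interval of the log2 difference from -0.45 to 0.12. Beside 7.9% higher and 5.21% lower of all genes, the respiratory chain genes held 2 higher (6.9%) and 3 lower (10.3%) of 29 tested. Feedback genes of NODAL, TGF-beta and BMP signalling held 1 higher (5.88%) and 2 lower (11.8%) of 17, and immediate early genes 2 higher (8%) and 4 lower (16%) of 25. Without dCas9-VPR replicate 2 these counts were 0, except that 1 immediate early gene was lower. The lower respiratory chain genes numbered 7 without DREAM replicate 2 and 0 when any other single library was left out, and the lower feedback genes up to 4.

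Among the best supported differences at levels of at least 50 CPM in both groups, beside the genes already described, were those of *RNF41* and *FXR2*. *RNF41*, an E3 ubiquitin ligase, was at 168 and 175 CPM with DREAM, 113 and 117 CPM with dCas9-VPR and 101 and 105 CPM in Control. *FXR2*, an RNA-binding protein related to FMRP, was at 172 and 174 CPM with DREAM, 120.4 and 122 CPM with dCas9-VPR and 124 and 127 CPM in Control. In both genes the DREAM libraries stood apart from Control and from dCas9-VPR. SAM libraries also lay above these groups, at 143 and 146 CPM for *RNF41* and 153 and 155 CPM for *FXR2*. The log2 differences between the activators were 0.57 (SE 0.05) and 0.51 (SE 0.05), with limma adjusted p-values of 0.000315 and 0.000347.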

How the data were processed

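Per the labels, the RNA was polyA RNA, while the study's methods name a total RNA kit. The authors aligned reads to hg38 with STAR 2.7.3a (submitters' processing notes, which also list DESeq2 3.5), quantified transcripts by a Bayesian approach and deposited CPM per gene with an offset of 0.0001, so that a gene at the offset is listed at 0. The worth of 1 read, and so the depth, was read off the spacing of low values. Only 63.6% to 69.2% of low values were whole reads (tolerance 0.03 reads), so reads were not recovered and no count test was run.

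A linear model of log2(CPM + 0.5) was run in limma (version 3.58.1, R version 4.3.3) with its trend and robust settings, all 8 libraries, SAM and Control included, sharing 1 estimate of spread (4 residual degrees of freedom). A gene was tested where 2 or more libraries reached 1 CPM, and all tests were two-sided. The threshold was the study's, a fold change above 2 and an FDR below 0.05. For sums, CPM were added and refitted. The fit was tested on simulated data. Python 3.11.15 with pandas 2.3.3 and matplotlib 3.10.9 did the rest.

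The members, gene lists and rules were chosen with earlier results of these data known. Genes named were those of the locus and effector lists, the 20 largest differences past the threshold with at least 3 CPM and no overlap, lower genes filled to 10 with the largest falls at 10 CPM or more, the 10 smallest p-values at 50 CPM or more, and in each list the members past the threshold and up to 4 others. *CCND1*, *MCM6*, *MKI67* and the neighbour pairs were chosen after their values were seen, and *TRIM5* and *TRIM6* complete the tested genes counted in the 500 kb window. Some genes named by the rule are not reported here. Alternatives were other scalings, pseudocounts, filters, thresholds and limma options, the 4 libraries alone, a replicate block and leaving out each library. Promoters are RefSeq starts on GRCh38.p14. Transfected and endogenous reads were not separated.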

Additional observations from a re-analysis of the deposited data

How the results depend on the processing

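With 2 libraries per group, calls near the threshold rest on single libraries, and log2(CPM + 0.5) limits what low genes can show. *HBG2*, *HBG1* and their sum were past the threshold in every fit, with log2 differences of 3.55 to 3.59, 2.87 to 4.13 and 3.54 to 3.59 under the other settings, the last range including *AC104389.6* in the sum. *HBG1* did not pass the filter at 10 CPM. Leaving out 1 library gave 3.38 to 3.77, 3.04 to 3.77 and 3.38 to 3.78. The number of genes past the threshold was then 86 to 152 between the activators, 385 to 444 for DREAM relative to Control and 145 to 211 for dCas9-VPR relative to Control, and 10 to 18 replication and division genes were lower. The 111 genes between the activators became 1983 with no fold threshold, 534 at a fold change above 1.5, 195 with a pseudocount of 0.1, 51 with a pseudocount of 1, 20 with a filter at 10 CPM and 9 in the limma test against a fold change of 2. For DREAM relative to Control, 385 became 4236, 1360, 104 and 59 with no fold threshold, at 1.5, with that filter and in that test. For dCas9-VPR relative to Control, 167 became 2666, 672, 309, 98, 41 and 16 in the order given for the activators. The 16 lower replication and division genes became 2 at a fold change above 1.5 and 0 at a fold change above 2 or in the test against it. The causes were not tested, beyond the thresholds' own construction. Replicate numbers are shared by the groups but nothing says what they mark. The correlation over genes of the replicate 1 minus 2 difference was 0.20 between DREAM and dCas9-VPR, and 0.13 to 0.33 over all pairs of groups. Of the 111 genes, 70 and 77 were kept without dCas9-VPR replicate 1 or 2, and 99 and 86 without DREAM replicate 1 or 2. A replicate block gave 113 genes past the threshold, all 111 among them, and 2512 higher and 1975 lower at an FDR below 0.05. Of 92 named genes that passed, 44 kept their call without any 1 library. Values near 0 turned for *S100A11* (-0.014 under median-of-ratios scaling, and -0.055 to 0.073 without 1 library), and, without 1 library, for *RELA* (-0.069 to 0.041), *S100A13* (-0.086 to 0.20) and *S100A4* (-0.14 to 0.29).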
